A study of Mus musculus with 6 samples.

Results

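The smooth muscle contractile genes Tagln, Tagln2, Cnn1, Cnn2, Cnn3, Myh11, Mylk, Smtn, Lmod1 and Myocd were followed in differentiating C2C12 cells. They were selected by gene name alone, and each of the 10 names matched 1 of the 55804 rows of the deposited gene table. C2C12 cells are mouse myoblasts that stop dividing and form myotubes when serum is withdrawn. RNA was sequenced after 3 days in low-serum differentiation medium from cells in which CRISPR/Cas9 was directed at Prr33 (Prr33-gRNA, genotype given as PRR33 knocked down) and from cells with a control guide RNA (Ctrl-gRNA, genotype given as WT), with 3 libraries in each group. The comparison addresses how gene expression differs when Prr33 is targeted during myoblast differentiation. The labels name neither the guide sequences nor more than 1 line per guide, so an effect of the guide and a difference between derived lines cannot be told apart.

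Smooth muscle contracts when calcium-calmodulin activates myosin light chain kinase, which phosphorylates the regulatory light chain of smooth muscle myosin. Calponins and transgelins are actin-binding proteins that share a calponin homology domain, and each family holds a form best known from smooth muscle (Cnn1, Tagln) beside forms found in many other cells (Cnn2, Cnn3, Tagln2). Genes of the smooth muscle programme are controlled by serum response factor, which binds CArG boxes together with myocardin or the related MRTF proteins. Skeletal myoblasts are known to use part of this programme, in particular smooth muscle alpha-actin, before and during fusion.

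Prr33 had 793, 829 and 848 counts in the Prr33-gRNA libraries, against 1137, 990 and 913 counts in the Ctrl-gRNA libraries. The groups did not overlap (edgeR log2 fold change -0.42, SE 0.06, adjusted p = 1.37e-06). Total counts ran from 17412383 to 19471762 in the Prr33-gRNA libraries and from 17006381 to 19118010 in the Ctrl-gRNA libraries. The cells carried skeletal muscle transcripts at high level, with Acta1 (skeletal alpha-actin) averaging 4775 FPKM in Prr33-gRNA cells and 6386 FPKM in Ctrl-gRNA cells and Myh3 (embryonic myosin heavy chain) averaging 869 FPKM in Prr33-gRNA cells and 2078 FPKM in Ctrl-gRNA cells. FPKM is the authors' count per gene length and library size, and it is the scale used here to compare levels between genes. Of the smooth muscle markers checked, Myh11, Cnn1 and Myocd had at most 7 counts in any library. Lmod1 averaged 1.13 FPKM in Prr33-gRNA cells and 0.844 FPKM in Ctrl-gRNA cells, and Actg2 averaged 2.36 FPKM and 33.3 FPKM. Acta2 (smooth muscle alpha-actin) averaged 2158 FPKM in Prr33-gRNA cells and 2630 FPKM in Ctrl-gRNA cells. The sample titles give C2C12 cells, so the name of the gene set describes where these genes are best known, not the cells that were sequenced.

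Promoter sequence is shown for 4 members that between them hold a silent and an abundant calponin, a member that was lower with the Prr33 guide and a low member whose libraries disagreed. RefSeq promoter windows (GRCm38.p6, the build behind mm10) were found for 7 members, but not for Tagln, Myh11 or Myocd. The 250 bases before the start site were searched on both strands for exact matches to 3 motifs. These were the CArG box CCWWWWWWGG (W being A or T), the E-box CANNTG bound by MyoD family factors and the MCAT element CATTCC bound by TEAD factors. Only bases outside annotated exons are printed, in lower case with CArG boxes and MCAT elements in capitals, 5′ to 3′ on the strand of the gene. The Cnn1 stretch is chr9:22099003-22099215 on the plus strand, that of Cnn2 chr10:79988350-79988583 on the plus strand, that of Smtn chr11:3539324-3539542 on the minus strand, and that of Lmod1 chr1:135324563-135324806 on the plus strand.
Cnn1: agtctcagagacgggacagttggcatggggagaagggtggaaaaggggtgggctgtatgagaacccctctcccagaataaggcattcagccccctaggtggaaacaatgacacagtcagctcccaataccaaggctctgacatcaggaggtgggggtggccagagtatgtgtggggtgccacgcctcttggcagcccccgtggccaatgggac
Cnn2: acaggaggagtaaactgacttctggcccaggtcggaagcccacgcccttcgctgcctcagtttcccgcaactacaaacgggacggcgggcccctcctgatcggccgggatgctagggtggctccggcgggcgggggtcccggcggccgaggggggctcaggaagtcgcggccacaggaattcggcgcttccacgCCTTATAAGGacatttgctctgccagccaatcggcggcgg
Smtn: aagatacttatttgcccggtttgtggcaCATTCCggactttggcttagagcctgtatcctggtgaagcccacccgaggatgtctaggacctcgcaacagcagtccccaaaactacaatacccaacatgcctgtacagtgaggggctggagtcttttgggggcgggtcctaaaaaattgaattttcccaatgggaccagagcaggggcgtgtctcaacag
Lmod1: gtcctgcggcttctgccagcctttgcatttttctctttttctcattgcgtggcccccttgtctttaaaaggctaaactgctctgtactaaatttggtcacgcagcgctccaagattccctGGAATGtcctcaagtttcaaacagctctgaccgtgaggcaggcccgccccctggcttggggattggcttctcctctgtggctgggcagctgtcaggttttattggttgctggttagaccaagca

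Of the 7 windows, that of Cnn2 held an exact CArG box, at bases -56 to -47 from the start site, and 1.47% of 32851 promoter windows of the same length held one. Stretches that differ from a motif by a single base were not counted, so the other windows may hold imperfect CArG boxes. Tagln, Myh11 and Myocd had no window to search. MCAT elements were found in the windows of Smtn (-222 to -217), Lmod1 (-130 to -125, on the opposite strand), Mylk (-158 to -153) and Tagln2 (-118 to -113 and -80 to -75), and in 12.6% of all windows. E-boxes were found in the windows of Cnn1, Cnn2 and Lmod1, and in 66.2% of all windows. The TATA box TATAAA, searched as well, was in 0 of the 7 and in 12.4% of all windows. None of the searched motifs overlapped another in these windows. The RefSeq starts of all 7 lie inside the counted gene, and the windows of Mylk and Smtn lie wholly inside it. The printed Smtn stretch thus lies within the counted Smtn gene (3517523 to 3540612). Both MCAT elements of Tagln2 fall in the 199 bases of its window that are annotated as Tagln2 exon. Mylk encodes long and short kinases and telokin from separate promoters, so its count pools these transcripts.

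The 10 genes fell into abundant and near-silent members, and this order was shared by both guides. Cnn3, Tagln2, Cnn2 and Smtn were the 4 that averaged at least 5 FPKM, and the other 6 averaged under 1 FPKM over all libraries. Cnn3, the acidic calponin, was the highest, with 276, 266 and 271 FPKM in the Prr33-gRNA libraries and 299, 303 and 311 FPKM in the Ctrl-gRNA libraries. It ranked 94 among all rows of the table by mean FPKM. Tagln2 averaged 87.0 ± 5.14 FPKM in Prr33-gRNA cells and 106 ± 5.04 FPKM in Ctrl-gRNA cells (SD, n = 3 each, as for the values that follow), and Cnn2 averaged 69.2 ± 7.69 FPKM in Prr33-gRNA cells and 72.1 ± 1.91 FPKM in Ctrl-gRNA cells. Smtn averaged 22.9 ± 0.910 FPKM in Prr33-gRNA cells and 27.0 ± 0.580 FPKM in Ctrl-gRNA cells. No library of 1 of these 4 genes overlapped a library of the next gene in the order within either group.

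The next 3 members lay close to each other in level. Lmod1 averaged 1.13 ± 0.422 FPKM in Prr33-gRNA cells and 0.844 ± 0.0187 FPKM in Ctrl-gRNA cells, and Mylk averaged 0.914 ± 0.170 FPKM in Prr33-gRNA cells and 0.753 ± 0.0182 FPKM in Ctrl-gRNA cells. Tagln averaged 0.672 ± 0.101 FPKM in Prr33-gRNA cells and 0.873 ± 0.229 FPKM in Ctrl-gRNA cells. Their ranges overlapped in the Prr33-gRNA libraries, and in the Ctrl-gRNA libraries that of Tagln overlapped both others while Lmod1 lay above Mylk in each. Cnn1, Myh11 and Myocd averaged at most 0.0782 FPKM in either group and were left out of the test by the filter on low counts.

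**Figure D1:**
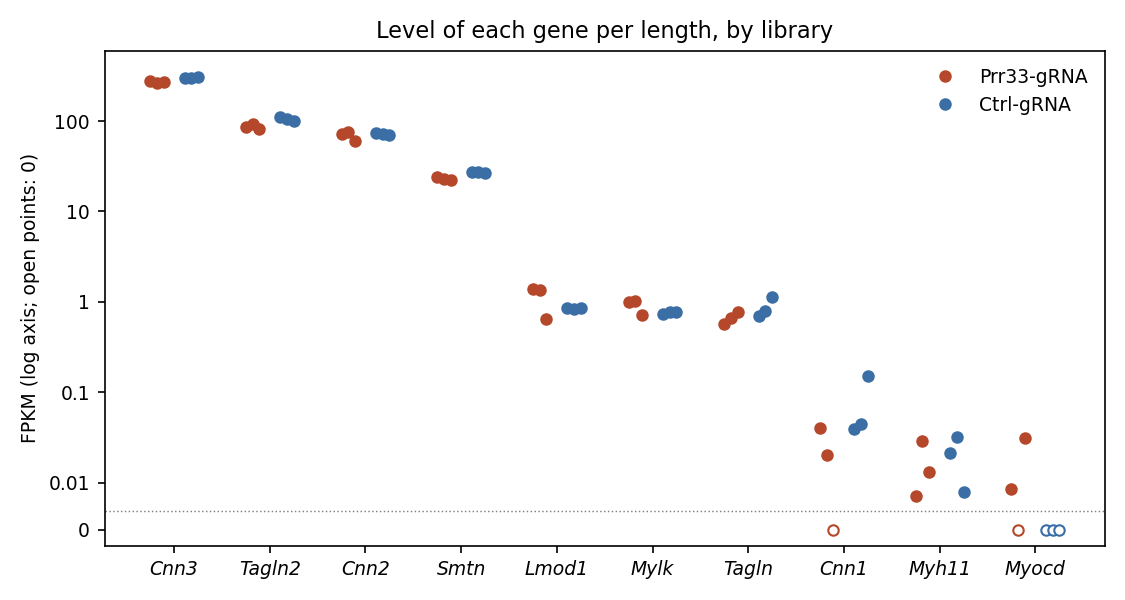
FPKM of each of the 10 genes (log axis) in the 3 Prr33-gRNA and 3 Ctrl-gRNA libraries, 1 point per library, with open points for libraries at 0. Cnn3, Tagln2, Cnn2 and Smtn lie above 20 FPKM in every library, Lmod1, Mylk and Tagln near 1 FPKM, and Cnn1, Myh11 and Myocd at or below 0.152 FPKM.

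Between the guides, 3 of the 7 tested members were lower in Prr33-gRNA cells, 4 did not pass and 0 were higher (edgeR quasi-likelihood test, adjusted p below 0.05 over 14651 genes; 0 were higher at an unadjusted p below 0.05, and 0 in DESeq2 and in limma-voom). Among all tested genes 52.1% passed, 26.6% being lower and 25.5% higher, so the members were not called more often than genes at large. The 3 that passed, Tagln2, Smtn and Cnn3, were also the 3 whose groups did not overlap, which was the case for 57.9% of all tested genes. The median log2 fold change of the 7 was -0.17 and ran from -0.38 to 0.40, against a median of -0.0023 and quartiles of -0.32 and 0.24 over all tested genes. In these bulk samples fewer cells of a kind and less RNA per cell cannot be told apart.

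Tagln2, a transgelin found in many cells besides smooth muscle, was lower in each Prr33-gRNA library than in any Ctrl-gRNA library. It had 180, 193 and 173 CPM (counts relative to the TMM-scaled library size) in the Prr33-gRNA libraries, against 233, 222 and 211 CPM in the Ctrl-gRNA libraries. The level fell by 18.1% (log2 fold change -0.29, SE 0.05; edgeR adjusted p = 7.04e-06). Smtn encodes smoothelin, a cytoskeletal protein of contractile smooth muscle of which a longer and a shorter form are known. It had 105, 100.0 and 97.0 CPM in the Prr33-gRNA libraries, against 121, 121 and 116 CPM in the Ctrl-gRNA libraries. Again no libraries overlapped, and the level fell by 15.8% (log2 fold change -0.25, SE 0.05; edgeR adjusted p = 9.15e-05).

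The 2 calponins with a measurable level differed in their calls. Cnn3 had 841, 810 and 829 CPM in the Prr33-gRNA libraries, against 918, 929 and 948 CPM in the Ctrl-gRNA libraries. All Prr33-gRNA libraries were lower, by 11.3% on average (log2 fold change -0.17, SE 0.04; edgeR adjusted p = 3.52e-04), a small change that did not pass when libraries were scaled by size alone (-0.084; edgeR adjusted p = 0.0649). Cnn2 had 178, 185 and 150 CPM in the Prr33-gRNA libraries, against 183, 180 and 173 CPM in the Ctrl-gRNA libraries. Here the groups overlapped, with Prr33-gRNA replicate 3 lowest of all and Prr33-gRNA replicate 2 highest of all. Cnn2 had a log2 fold change of -0.07 (SE 0.06; edgeR adjusted p = 0.388), with a 95% interval of -0.19 to 0.06.

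The difference in calls did not amount to a measured shift within the calponin family. Per gene length, Cnn3 made up 79.3%, 78.0% and 81.8% of the summed calponin FPKM in the Prr33-gRNA libraries, against 80.2%, 80.7% and 81.6% in the Ctrl-gRNA libraries. These shares overlapped (79.7 ± 1.91% and 80.8 ± 0.693%, SD, n = 3 each; exact two-sided permutation test p = 0.5, where 3 against 3 libraries cannot go below 0.1). Cnn1 contributed 0.00577 ± 0.00570% in Prr33-gRNA cells and 0.0207 ± 0.0166% in Ctrl-gRNA cells. Tagln2 made up 99.2 ± 0.143% of transgelin FPKM in Prr33-gRNA cells and 99.2 ± 0.254% in Ctrl-gRNA cells (exact two-sided permutation p = 0.8).

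**Figure D2:**
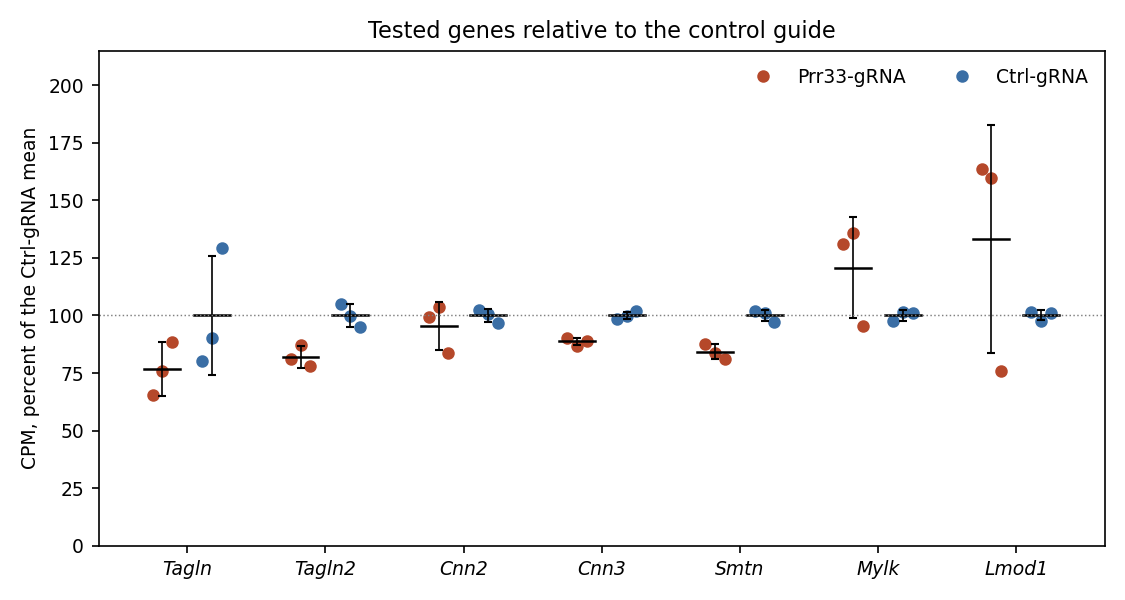
CPM of the 7 tested genes in each library as a percentage of the Ctrl-gRNA mean, with horizontal bars for group means and error bars for ± 1 SD (n = 3). Tagln2, Cnn3 and Smtn show no overlap between guides, while for Mylk and Lmod1 Prr33-gRNA replicate 3 lies below the controls and the other two Prr33-gRNA libraries above them.

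Mylk and Lmod1, which act in myosin activation and on the thin filament of smooth muscle, had higher means in Prr33-gRNA cells but did not pass the test. Mylk, the light chain kinase gene, had 11.2, 11.6 and 8.15 CPM in the Prr33-gRNA libraries, against 8.33, 8.67 and 8.64 CPM in the Ctrl-gRNA libraries. Replicates 1 and 2 lay above every control and replicate 3 below every control, giving a value of 0.27 on the log2 scale (SE 0.14; edgeR adjusted p = 0.109) with a 95% interval of -0.02 to 0.56. Lmod1, the leiomodin of smooth muscle, which nucleates actin filaments, had 5.49, 5.37 and 2.55 CPM in the Prr33-gRNA libraries, against 3.41, 3.28 and 3.39 CPM in the Ctrl-gRNA libraries. The same 2 libraries were above all controls and the same 1 below, with a difference of 0.40 on the log2 scale (SE 0.23; edgeR adjusted p = 0.153) and a 95% interval of -0.07 to 0.88. Without that library, Prr33-gRNA replicate 3, both passed, with log2 fold changes of 0.42 for Mylk (edgeR adjusted p = 0.0136) and 0.70 for Lmod1 (edgeR adjusted p = 0.00668). Scaling by library size alone also brought Mylk past the threshold (0.36; edgeR adjusted p = 0.0311).

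Tagln, the smooth muscle transgelin also called SM22-alpha, was close to silent with either guide. It had 21, 24 and 31 counts in the Prr33-gRNA libraries, against 26, 26 and 38 counts in the Ctrl-gRNA libraries. The groups overlapped in CPM, at a log2 fold change of -0.38 (SE 0.32; edgeR adjusted p = 0.341) with a 95% interval of -1.02 to 0.27. Leaving out single libraries gave -0.51 (without Ctrl-gRNA replicate 1) to -0.15 (without Ctrl-gRNA replicate 3), never called. By FPKM its paralog Tagln2 was higher 132 ± 22.7 times over in Prr33-gRNA cells and 127 ± 35.2 times over in Ctrl-gRNA cells (SD, n = 3 each).

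The level of Tagln carries a limit of counting. Of its 1988 exonic bases on chromosome 9 (45929619 to 45936058, minus strand), 67.9% are also exonic in a gene on the other strand, 1241 bases in the noncoding Gm48529 and 108 bases in Pcsk7. The sources used here do not give the strand setting, and unless told otherwise featureCounts assigns no read that overlaps 2 genes. Gm48529 itself had 17, 13 and 8 counts in the Prr33-gRNA libraries, against 26, 17 and 23 counts in the Ctrl-gRNA libraries, and did not pass (edgeR adjusted p = 0.0511). If all Tagln counts came from its 639 unshared bases, its level would be 2.09 FPKM in Prr33-gRNA cells and 2.72 FPKM in Ctrl-gRNA cells, and Tagln2 would still be higher 42.3 ± 7.30 times over in Prr33-gRNA cells and 40.9 ± 11.3 times over in Ctrl-gRNA cells. Exons were also shared by Cnn3 (17.7% of bases, with Gm42928), Smtn (16.3%, with Gm11946 and Gm11947) and Mylk (6.85%, with E130310I04Rik and Gm21691), each on the opposite strand.

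Cnn1, Myh11 and Myocd, genes best known as smooth muscle markers, were at the limit of detection. Cnn1, for the calponin of contractile smooth muscle, had 2, 1 and 0 counts in the Prr33-gRNA libraries, against 2, 2 and 7 counts in the Ctrl-gRNA libraries. The summed counts of 3 and 11 gave a ratio of Prr33-gRNA to Ctrl-gRNA of 0.250 with a 95% counting interval of 0.0448 to 0.947, but 7 of the 11 control counts came from 1 library, and a fit without the low-count filter did not pass (edgeR adjusted p = 0.315). Myh11, for smooth muscle myosin heavy chain, had 1, 4 and 2 counts in the Prr33-gRNA libraries, against 3, 4 and 1 counts in the Ctrl-gRNA libraries, a ratio of 0.802 (95% counting interval 0.248 to 2.53). Myocd, for myocardin, had 1, 0 and 4 counts in the Prr33-gRNA libraries, against 0, 0 and 0 counts in the Ctrl-gRNA libraries. A count of 0 over the Ctrl-gRNA group has a 95% upper limit of 0.0713 CPM, and the floor of 3 counts over that group is 0.0579 CPM. The 95% counting interval of the Myocd ratio starts at 0.840 and has no upper end. None of these 3 genes passed a fit without the low-count filter (edgeR adjusted p = 0.315 for Cnn1, 0.884 for Myh11 and 0.193 for Myocd). Counts this low leave the size of any difference in them largely unresolved. The intervals and floors describe counting error in the pooled counts, not the spread between libraries. PCR copies of 1 molecule cannot be recognised, so they may be too narrow even for counting error.

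Other genes known from smooth muscle were called in both directions, some with larger changes than any member. Over all 14651 tested genes 26.6% were lower and 25.5% higher, with a median log2 fold change of -0.0023. These shares are the background for this list and those below, none of which was tested as a set. Of 26 other genes known from smooth muscle 22 were tested, and 12 were lower, 6 higher and 4 not called, with a median log2 fold change of -0.29. Actg2, the gamma-actin of enteric smooth muscle, fell most, with 82, 59 and 67 counts in the Prr33-gRNA libraries against 931, 831 and 941 counts in the Ctrl-gRNA libraries (log2 fold change -3.82, SE 0.11; edgeR adjusted p = 1.56e-25). Acta2 changed far less (log2 fold change -0.29). Myl9, the regulatory light chain that Mylk phosphorylates, fell to 5.87 ± 0.571 FPKM in Prr33-gRNA cells, against 22.5 ± 3.38 FPKM in Ctrl-gRNA cells. Synpo2, an actin-bundling protein, and the tropomyosin gene Tpm2 fell as well (log2 fold changes of -0.94 and -0.30). Vcl (vinculin) fell to 301 ± 1.16 CPM in Prr33-gRNA cells, against 602 ± 11.8 CPM in Ctrl-gRNA cells (SD, n = 3 each). Fermt2 (an integrin activator) had a log2 fold change of -0.97, and both lie on chromosome 14, where 397 of 472 tested genes were lower. With chromosome 14 left out and the scaling computed again, the list gave 12 lower and 6 higher of 20. Vcl and Fermt2 are not among these 20, so the 12 include genes not called lower in the main test. The 4 that were too low to test were Ppp1r14a, Kcnmb1, Itga8 and Aoc3, picked out after their values were seen, and the first 2 of these, for an inhibitor of myosin phosphatase and a potassium channel subunit, had 0 counts in every Prr33-gRNA library and at most 3 counts in any Ctrl-gRNA library.

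**Figure D3:**
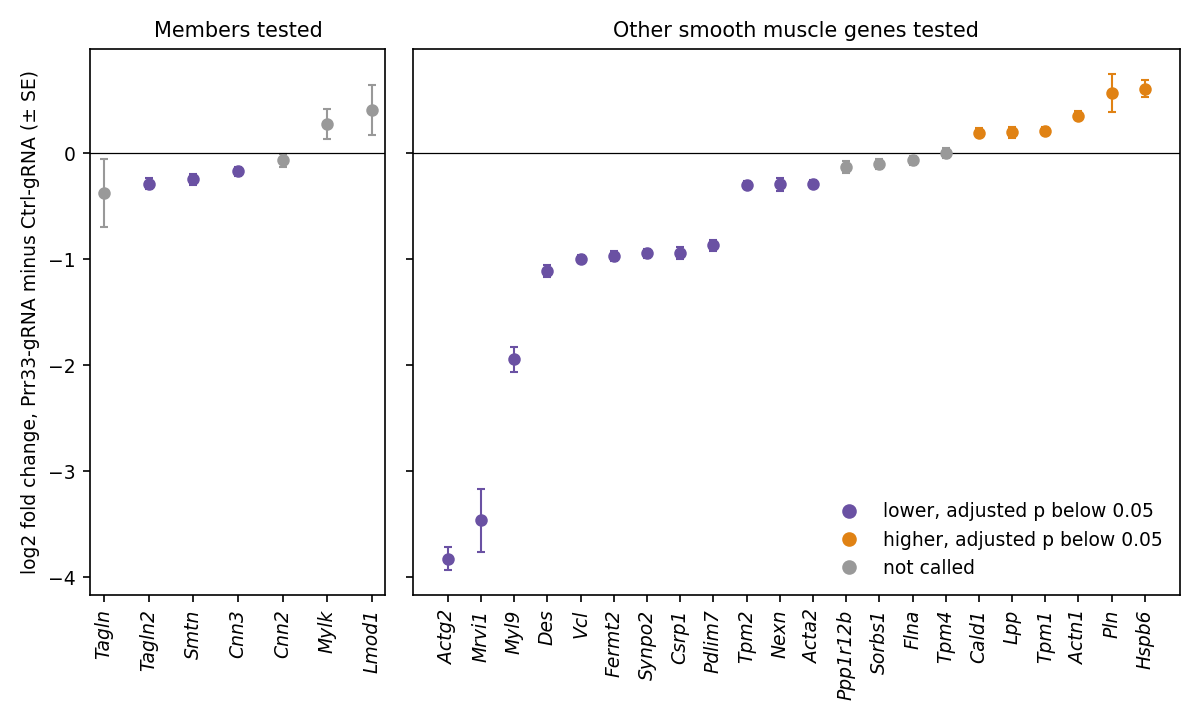
Log2 fold change (Prr33-gRNA minus Ctrl-gRNA, ± SE) of the 7 tested members and of the 22 tested genes of the list of other smooth muscle genes, coloured by call (edgeR, adjusted p below 0.05). The members lie between -0.38 and 0.40, while Actg2, Mrvi1 and Myl9 lie below -1.9 and the highest of the list, Hspb6, at 0.61 (Mrvi1 and Hspb6 are named with their values already known).

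The transcriptional regulators of the programme were split. Of 22 regulators linked to serum response factor and myocardin 19 were tested, with 7 higher, 7 lower and 5 not called. Srf itself, the factor that binds CArG boxes, averaged 30.8 ± 1.47 FPKM in Prr33-gRNA cells and 33.0 ± 0.188 FPKM in Ctrl-gRNA cells and did not pass (log2 fold change -0.11; edgeR adjusted p = 0.0880). The coactivator gene Mrtfb rose to 8.75 ± 0.355 FPKM in Prr33-gRNA cells, against 5.67 ± 0.237 FPKM in Ctrl-gRNA cells (0.62), while its relative Mrtfa, named for comparison after its values were seen, had a log2 fold change of -0.13. Tgfbr2, a TGF-beta receptor, rose by 0.46 on the log2 scale. Klf5 (chromosome 14) and Notch3, a receptor known from vascular smooth muscle, had log2 fold changes of -0.95 and -1.40. Among 18 cytoskeletal targets of serum response factor 11 were lower, 3 higher and 4 not called. Ccn2 and Itga5 fell (-1.65 and -0.65), Filip1l and Ccn1 rose by 0.74 and 0.55, and the cytoplasmic actin gene Actb did not pass (-0.08).

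Genes that set myosin phosphorylation, the step catalysed by the Mylk product, were more often lower than higher under TMM scaling. Of 20 genes 18 were tested, with 9 lower, 4 higher and 5 not called, but under library-size scaling 5 were lower and 7 higher. Rhoc, Rhob and Myl9 fell (log2 fold changes of -0.91, -0.42 and -1.95), Ppp1r14b fell by less (-0.17) and Rock2 rose by 0.33. The calmodulin gene Calm2 did not pass (log2 fold change 0.09).

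The paralogs of the members in the skeletal and non-muscle programmes also moved. Of 13 paralogs 10 were tested, with 6 lower, 3 higher and 1 not called. The skeletal leiomodins Lmod2 and Lmod3 both fell (log2 fold changes of -0.64 and -0.66), Lmod2 to 47.9 ± 2.38 FPKM in Prr33-gRNA cells, against 74.5 ± 2.88 FPKM in Ctrl-gRNA cells, and Lmod3 to 67.2 ± 2.34 FPKM in Prr33-gRNA cells, against 106 ± 3.24 FPKM in Ctrl-gRNA cells. Mylk2, the skeletal light chain kinase, fell to 4.20 ± 0.631 FPKM in Prr33-gRNA cells, against 12.9 ± 0.700 FPKM in Ctrl-gRNA cells (-1.62). Mylk4 and Mylk3, named after their values were seen, were called higher, Mylk4 at 0.60 and Mylk3 at 1.21 with at most 31 counts in any library. Of the non-muscle myosin genes, Myh9 fell (-0.46) and Myh10 did not pass (-0.04). Myh14, named after its values were seen, was called lower at -1.30 with at most 29 counts in any library. Among 30 skeletal sarcomere genes 29 were tested, and 25 were lower and 4 higher with a median log2 fold change of -0.70. No test was made of the difference between that list and the members.

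Markers of other cell types that could carry a smooth muscle signal had a lower summed level with the Prr33 guide in each of 3 lists, although single markers were higher. Each sum mostly follows the few markers with the highest counts. The summed level of 10 pericyte markers was 125 to 139 CPM in Prr33-gRNA libraries and 229 to 253 CPM in Ctrl-gRNA libraries, and 3 of the 4 tested were lower and 1, Anpep, higher. Notch3 had the highest CPM of the 10 in either group, averaging 51.4 CPM in Prr33-gRNA cells and 135 CPM in Ctrl-gRNA cells. The 6 pericyte markers too low to test were Rgs5, Cspg4, Kcnj8, Abcc9, Higd1b and Ndufa4l2, and the highest of them, Ndufa4l2, averaged 0.116 FPKM in Prr33-gRNA cells and 0.177 FPKM in Ctrl-gRNA cells. The sum of 10 fibroblast markers was 1277 to 1357 CPM in Prr33-gRNA libraries and 2560 to 2724 CPM in Ctrl-gRNA libraries, with 6 of 8 tested lower and 1 higher, and Lum at 0 throughout. The highest by CPM in Ctrl-gRNA cells were Col3a1, Postn and Ly6a, at 1117, 873 and 464 CPM. In Prr33-gRNA cells the same genes averaged 797, 456 and 4.76 CPM. The lower ones included Ly6a (log2 fold change -6.60), Col1a1 (-4.26), Dcn (-2.20), Postn (-0.94) and Col3a1 (-0.49). The higher one was Col1a2, a fibrillar collagen gene, at 41.4 ± 1.74 CPM in Prr33-gRNA cells and 6.66 ± 0.659 CPM in Ctrl-gRNA cells (SD, n = 3 each; log2 fold change 2.63, edgeR adjusted p = 4.38e-22). The sum of 10 endothelial markers was 4.40 to 6.85 CPM in Prr33-gRNA libraries and 15.2 to 19.1 CPM in Ctrl-gRNA libraries, with 1 of 4 tested lower, and Emcn and Tie1 at 0 throughout. The lower one, Flt1, had the highest CPM of the endothelial markers in either group. It averaged 2.09 ± 0.506 CPM in Prr33-gRNA cells and 11.9 ± 2.03 CPM in Ctrl-gRNA cells, and Vwf, Cldn5 and Egfl7 were not called. By FPKM, Cldn5 (0.708 FPKM) lay above Flt1 (0.154 FPKM) in Prr33-gRNA cells. The untested markers in these lists were named after their values were seen. The number of endothelial markers called lower was 2 in limma-voom and without the low-count filter. It was also 2 without Prr33-gRNA replicate 1 or 3 or Ctrl-gRNA replicate 1 or 3. Without Prr33-gRNA replicate 2, 3 endothelial markers were lower and 1 higher. The part of the pericyte, fibroblast and endothelial markers in the values of the members was not tested.

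Across the 6 libraries, the 3 genes whose centred log2 CPM profile lay nearest to that of Cnn3, among 10757 tested genes averaging at least 5 CPM, were Fitm2, Dapk3 and Slc37a2 (Euclidean distances of 0.0349, 0.0359 and 0.0437). Dapk3, a kinase that acts on myosin light chains and myosin phosphatase, averaged 64.7 ± 0.645 CPM in Prr33-gRNA cells and 72.9 ± 1.90 CPM in Ctrl-gRNA cells. Fitm2, for a protein of lipid droplet formation, averaged 62.2 ± 1.06 CPM in Prr33-gRNA cells and 71.2 ± 1.89 CPM in Ctrl-gRNA cells. Since the libraries form 2 groups, genes with a like difference between the guides lie close on this measure by construction.

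**Figure D4:**
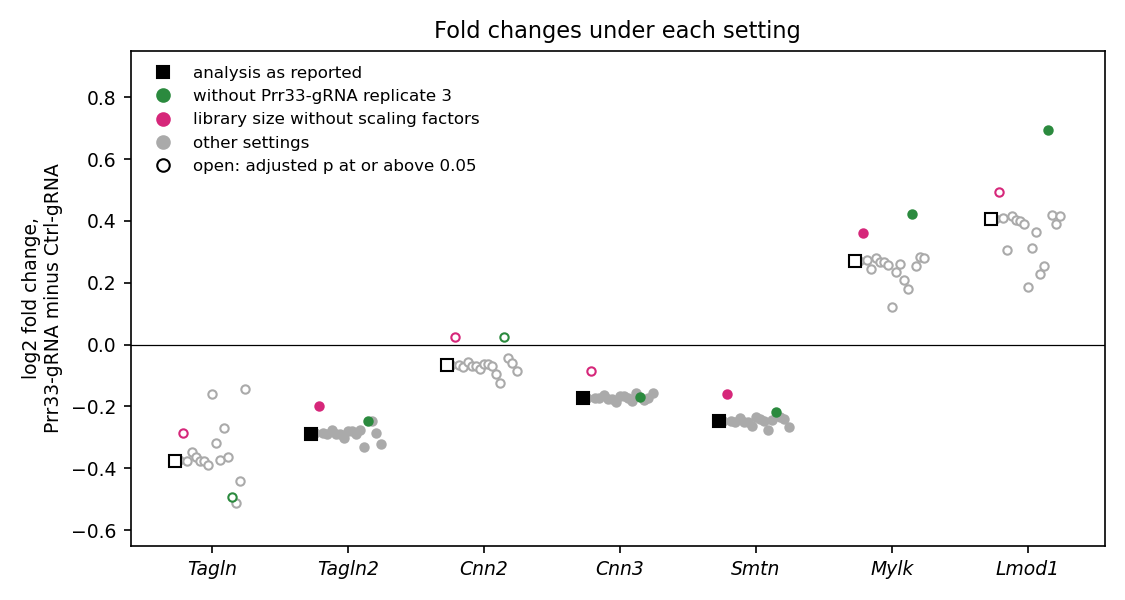
Log2 fold change (Prr33-gRNA minus Ctrl-gRNA) of the 7 tested genes in the analysis as reported (squares) and under each other setting (circles), filled where the adjusted p was below 0.05. Tagln2 and Smtn stay filled throughout, Cnn3 opens under library-size scaling, and Mylk and Lmod1 reach 0.42 and 0.70 without Prr33-gRNA replicate 3.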

How the data were processed

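Whole-read counts per gene, not normalized, were deposited by the authors, and FPKM values were deposited by the authors in a second table. The submitters' processing notes list featureCounts 1.5.0-p3, HISAT2 2.0.5, CASAVA and mm10; roles, strand setting and annotation release are not given in the sources used here. Groups came from the sample titles. Nothing says that the 3 libraries of a group were separate cultures, so p-values measure the spread between libraries, which may be technical. Chi-square per gene between replicate pairs was 2.76 to 5.32, above counting noise.

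The counts were tested with edgeR 4.0.16 in R 4.3.3 (filterByExpr, TMM, robust quasi-likelihood F test, no covariate, Benjamini-Hochberg over 14651 genes, threshold 0.05), checked on simulated counts. The 333 rows without an Ensembl ID (0.199% to 0.252% of counts) stayed in. SE is the absolute log2 fold change over the square root of F, and intervals use the t distribution with the test's degrees of freedom. Floors are 3 counts. Family shares used FPKM and exact permutation tests (scipy 1.17.1). Exon overlaps used GENCODE M21, in which all 10 genes have the deposited positions and lengths. Named genes were the members, up to 4 genes per list with the lowest adjusted p and 2 more with the highest FPKM, genes overlapping a member, and the 3 nearest profiles; others are marked where named. Members and lists were chosen with earlier results of these data known.

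Alternatives were RLE factors, library size alone, DESeq2 1.42.0, limma-voom (limma 3.58.1), other filters, protein-coding genes only, chromosome 14 left out, log2(FPKM + 1) and log2(FPKM + 0.1), a replicate block, each library left out, and a threshold of 0.01. Levels per unshared exonic base were added after the data were seen. Promoters are from RefSeq (GRCm38.p6).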

Additional observations from a re-analysis of the deposited data

How the results depend on the processing

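Of 126 recomputed log2 fold changes of the 7 tested members over 18 settings, 4 changed side of the threshold and none that passed changed sign. Library size without scaling factors, which moved the median of all tested genes by 0.09, gave 1 member higher: Mylk was called (0.36) and Cnn3 was not (-0.084). Leaving out single libraries gave 0 to 2 members higher, with Mylk at 0.18 to 0.42 and Lmod1 at 0.23 to 0.70, both called without Prr33-gRNA replicate 3, whose values for them lay below all controls. Cnn2, never called, had the opposite sign in 2 settings (0.02 each, under library-size scaling and without Prr33-gRNA replicate 3). Tagln2 ranged from -0.33 to -0.20 and Smtn from -0.28 to -0.16, called throughout. Of 324 list counts 10 moved by over 1.5 times, in myosin phosphorylation and endothelial markers. Replicate numbers did not pair the libraries (correlations of deviations -0.02, -0.00 and 0.06); the replicate block gave 3811 higher and 3975 lower genes, no member changed its call and Lmod1 stood at 0.36. Taking counts per unshared exonic base raised Tagln to 2.09 FPKM in Prr33-gRNA cells and 2.72 FPKM in Ctrl-gRNA cells. Depth limits Cnn1, Myh11 and Myocd.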
